A study of Mus musculus with 76 samples.

Results

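The neurexins, neuroligins and leucine-rich repeat transmembrane (Lrrtm) proteins are adhesion molecules that meet across the synaptic cleft, and 9 of their genes were followed in the developing mouse diencephalon: the neurexins Nrxn2 and Nrxn3, the neuroligins Nlgn1, Nlgn2 and Nlgn3, and Lrrtm1, Lrrtm2, Lrrtm3 and Lrrtm4. They were 9 of the 56923 gene IDs in the count files. The list was chosen by family, with the RNA difference between genotypes at embryonic day E11.5 in view. Lrrtm3 ranked 2 of 17816 genes by p-value there, so that comparison is described below without a test.

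Neurexins sit mainly on the presynaptic membrane and bind neuroligins and Lrrtm proteins on the postsynaptic side. The pairs help to organise the transmitter release machinery and the receptors that face each other at a synapse. Neurexin genes are known for several promoters that give long and short proteins, and in the brain the 3 classes are expressed mostly by neurons.

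The mice carried the human sequence of the enhancer hs754 in place of its mouse ortholog on both alleles (hs754-humanized, made by CRISPR/Cas9 in C57BL/6J embryos, the edited line then backcrossed to C57BL/6J) or the mouse sequence on both alleles (wild type). Diencephalon came from crosses of homozygous parents at E11.5 or E17.5, and each replicate pooled embryos of 1 litter, 6 embryos at E11.5 and 3 at E17.5. RNA-seq had 4 replicates in each of the 4 groups. Chromatin immunoprecipitation sequencing (ChIP-seq) covered 3 histone marks, H3K27ac, H3K4me3 and H3K27me3, in 2 wild type and 2 humanized pools for E11.5 and 3 of each for E17.5, and the DNA-binding protein CTCF in 3 of each for E17.5 only. The humanized mice are a single edited line, the whole embryo carried the replacement, and none of the 9 genes lies on chromosome 13, which holds hs754.

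In the mouse genome (mm39, the GRCm39 assembly), Nrxn2 is at chr19:6468761-6594199 on the plus strand, Nrxn3 at chr12:88689646-90301709 on the plus strand, Nlgn1 at chr3:25480379-26386609 on the minus strand, Nlgn2 at chr11:69713948-69728613 on the minus strand and Nlgn3 at chrX:100342750-100369570 on the plus strand. Lrrtm1 is at chr6:77218820-77235200 on the plus strand, Lrrtm2 at chr18:35342056-35348120 on the minus strand, Lrrtm3 at chr10:63763854-63926056 on the minus strand and Lrrtm4 at chr6:79995860-80787124 on the plus strand. Lrrtm1, Lrrtm2 and Lrrtm3 lie inside the alpha-catenin genes Ctnna2, Ctnna1 and Ctnna3, each on the strand opposite to its host. Exons of Lrrtm2 overlap annotated exons of Ctnna1, whereas Lrrtm1 and Lrrtm3 share no exonic base with their hosts. For Lrrtm2 there were 6 overlapping pairs of exon entries over all transcripts, and 1 place can count more than once.

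RNA libraries had 16414369 to 24272569 reads counted on genes. Of 10 diencephalon marker genes, none was at 0 in any group, and their summed level was 1412 to 2267 CPM (read counts scaled to library size by TMM) over the 16 samples, against 45.4 to 106 CPM for 6 telencephalon markers. Between the stages the summed level of 10 pan-neuronal genes went from 1823 to 3208 CPM at E11.5 to 7893 to 10498 CPM at E17.5, and that of 10 neural progenitor genes from 4582 to 5218 CPM to 1014 to 1272 CPM, with no gene of either list at 0. In bulk tissue, fewer cells of a type and less RNA per cell cannot be told apart. One library, wild type E17.5 replicate 1, stood apart from the other 7 of its stage for 8 of the 9 genes, and results that rest on it are given with and without it.

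The members differ in how CpG-rich the sequence before their starts is. CpG-rich promoters are the usual sites of H3K4me3, so 6 windows are shown, each the 250 bases before an annotated start in GRCm39, written 5′ to 3′ on the strand of the gene with every CpG in capitals. They are the window of Lrrtm3, the member with the largest genotype contrast at E11.5 relative to its error, the most CpG-dense windows of an Lrrtm gene and of a neuroligin, and 3 starts of Nrxn3 that differ in their marks.
Lrrtm3, chr10:63926054-63926303, minus strand: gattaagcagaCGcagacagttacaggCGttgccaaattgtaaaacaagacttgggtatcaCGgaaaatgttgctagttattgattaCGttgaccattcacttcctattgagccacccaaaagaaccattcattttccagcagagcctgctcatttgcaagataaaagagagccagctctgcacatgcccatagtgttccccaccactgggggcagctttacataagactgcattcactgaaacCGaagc
Lrrtm1, chr6:77219430-77219679, plus strand: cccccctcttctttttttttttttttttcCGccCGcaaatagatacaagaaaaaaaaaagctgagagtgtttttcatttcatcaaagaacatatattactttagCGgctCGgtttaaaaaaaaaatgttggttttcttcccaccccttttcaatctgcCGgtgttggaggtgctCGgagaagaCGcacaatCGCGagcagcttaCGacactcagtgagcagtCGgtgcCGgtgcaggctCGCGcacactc
Nlgn2, chr11:69728614-69728863, minus strand: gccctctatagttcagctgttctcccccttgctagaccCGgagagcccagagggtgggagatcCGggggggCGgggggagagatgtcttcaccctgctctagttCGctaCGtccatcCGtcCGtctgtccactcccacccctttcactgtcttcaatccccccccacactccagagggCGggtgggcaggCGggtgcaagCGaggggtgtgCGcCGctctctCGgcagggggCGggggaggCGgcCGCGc
Nrxn3 first start, chr12:88689506-88689755, plus strand: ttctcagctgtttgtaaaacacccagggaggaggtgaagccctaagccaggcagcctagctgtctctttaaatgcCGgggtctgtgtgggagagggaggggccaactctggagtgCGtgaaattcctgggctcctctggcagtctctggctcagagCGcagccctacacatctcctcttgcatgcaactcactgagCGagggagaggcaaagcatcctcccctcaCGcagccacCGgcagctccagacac
Nrxn3 canonical start, chr12:88761024-88761273, plus strand: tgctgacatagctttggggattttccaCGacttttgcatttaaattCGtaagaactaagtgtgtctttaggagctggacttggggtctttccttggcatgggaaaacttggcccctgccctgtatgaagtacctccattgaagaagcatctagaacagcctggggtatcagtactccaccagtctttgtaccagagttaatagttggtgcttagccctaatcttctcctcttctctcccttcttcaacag
Nrxn3 downstream start, chr12:89778928-89779177, plus strand: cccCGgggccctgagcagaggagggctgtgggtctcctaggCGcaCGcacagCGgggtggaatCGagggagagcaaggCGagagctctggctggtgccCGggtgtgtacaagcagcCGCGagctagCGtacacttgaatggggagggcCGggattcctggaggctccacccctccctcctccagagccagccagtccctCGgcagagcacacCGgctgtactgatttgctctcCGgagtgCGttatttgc

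The Nlgn2 and Nrxn2 windows each held 17 CpGs, at percentile 78.5 of the 21770 protein-coding promoters, whose median was 8 CpGs. Lrrtm1 held 14, Lrrtm3 and Nlgn3 held 5 each, Lrrtm2 held 4, Lrrtm4 held 3, and the canonical starts of Nrxn3 and Nlgn1 held 2 each. Lrrtm1 combined 44.8% GC with an observed to expected CpG ratio of 1.125, at percentile 98.5 of all promoters. The Lrrtm3 window had 45.2% GC and a ratio of 0.395. The first Nrxn3 start held 6 CpGs and the start 1089.4 kb downstream held 15.

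Most of the family was more abundant at E17.5 than at E11.5. Of the 9 genes, 8 rose with stage in wild type and 8 rose in humanized diencephalon, and Nlgn2 did not pass the test in either (edgeR quasi-likelihood test, Benjamini-Hochberg adjusted p under 0.05 over all genes tested). Of 18583 genes tested in wild type, 29.0% were higher at E17.5 and 26.7% were lower. Of 18781 genes tested in humanized tissue, 38.2% were higher and 39.5% lower. The median log2 fold change of the 9 genes was 2.54 in wild type and 3.20 in humanized diencephalon, against -0.01 and -0.04 over all genes tested. The 2 stage comparisons use separate samples, but both use E11.5 samples on which the list was chosen.

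**Figure D1:**
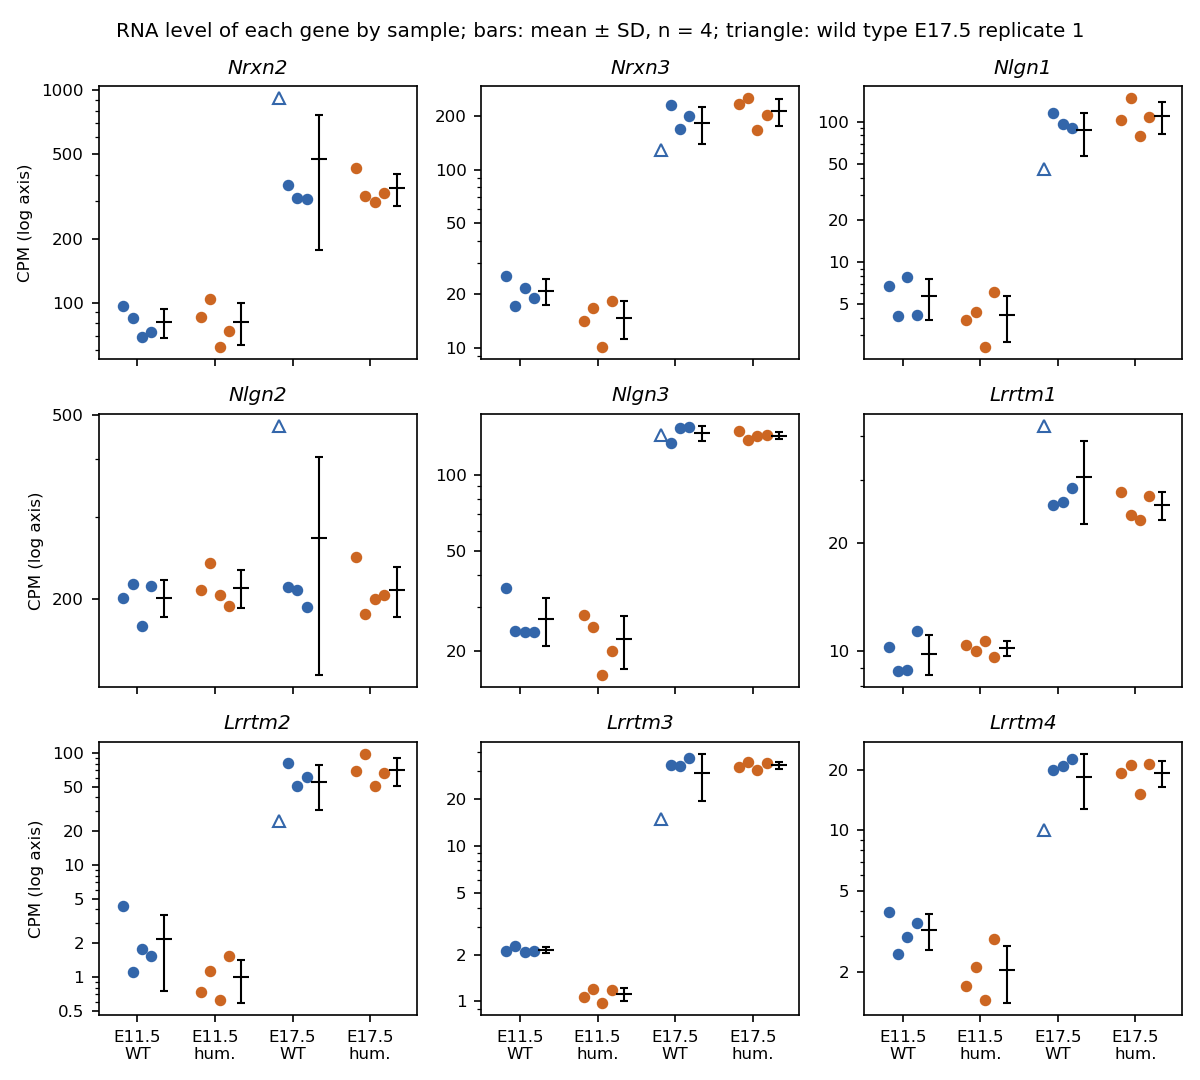
RNA level of each of the 9 genes in CPM (log axes) in each of the 16 samples, by stage and genotype (WT, wild type, and hum., hs754-humanized), with the mean and SD of 4 replicates as bars and wild type E17.5 replicate 1 as an open triangle. In 8 genes every E17.5 sample lies above every E11.5 sample of its genotype, Nlgn2 shows no such step, and Lrrtm3 is the gene in which the 2 genotypes separate at E11.5, at 0.983 to 1.21 CPM and 2.07 to 2.28 CPM.

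Nrxn2, a presynaptic neurexin, stood at 96.8, 84.8, 68.9 and 73.1 CPM in wild type replicates 1 to 4 at E11.5 and at 914, 358, 311 and 306 CPM at E17.5. Its humanized samples were at 85.7, 104, 61.9 and 73.9 CPM at E11.5 and 432, 318, 299 and 330 CPM at E17.5. The stages did not overlap in either genotype, and wild type E17.5 replicate 1 was far above the other 7 samples of its stage. Nrxn2 rose with stage by 2.54 ± 0.36 (log2, SE) in wild type (adjusted p = 0.000176), by 1.98 without that library, and by 2.08 ± 0.17 in humanized diencephalon (adjusted p = 3.34e-07).

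Nrxn3, the other neurexin followed here, was at 25.4, 17.2, 21.6 and 19.1 CPM in wild type E11.5 samples and at 129, 230, 170 and 199 CPM at E17.5. In humanized samples it was at 14.1, 16.7, 10.1 and 18.2 CPM and then at 233, 251, 167 and 202 CPM. Nrxn3 rose by 3.12 ± 0.23 in wild type (adjusted p = 2.18e-06) and by 3.84 ± 0.21 in humanized tissue (adjusted p = 1.14e-08), again with no overlap of the stages.

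The neuroligins, postsynaptic partners of neurexins, did not move as one. Nlgn1, known from excitatory synapses, was at 4.14 to 7.89 CPM in wild type E11.5 samples and at 45.8, 115, 95.9 and 90.6 CPM at E17.5, and it rose by 3.91 ± 0.35 (log2, adjusted p = 6.76e-06). In humanized samples Nlgn1 went from 2.48 to 6.15 CPM to 79.9 to 147 CPM, a rise of 4.67 ± 0.28 (adjusted p = 2.38e-08). With offsets for exonic GC content its rises were 2.9 and 2.91, smaller but still past the threshold. Nlgn3 went from 23.7 to 35.4 CPM to 133 to 154 CPM in wild type and from 16.1 to 27.9 CPM to 137 to 149 CPM in humanized samples. Its rises were 2.44 ± 0.19 (adjusted p = 2.89e-06) and 2.67 ± 0.16 (adjusted p = 2.12e-08).

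Nlgn2, the neuroligin known from inhibitory synapses, was already abundant at E11.5. It stood at 201, 215, 175 and 213 CPM in wild type E11.5 samples and at 472, 212, 209 and 192 CPM at E17.5. Humanized samples had 209, 239, 204 and 193 CPM at E11.5 and 246, 186, 200 and 204 CPM at E17.5. The stages overlapped in both genotypes, and the one high value was again wild type E17.5 replicate 1. The stage difference was 0.42 ± 0.28 (log2, adjusted p = 0.23) in wild type, 0.00 ± 0.12 without that library, and -0.02 ± 0.11 (adjusted p = 0.85) in humanized tissue. With the GC offsets the estimates became 0.35 (adjusted p = 0.023) and 0.49 (adjusted p = 0.000926), both past the threshold, so whether Nlgn2 changed depends on that correction.

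All 4 Lrrtm genes rose in both genotypes. Lrrtm1 was at 8.81 to 11.4 CPM in wild type and 9.63 to 10.7 CPM in humanized samples at E11.5, and reached 42.5, 25.6, 26.1 and 28.5 CPM and 23.2 to 27.9 CPM at E17.5. Its rises, 1.63 ± 0.22 (adjusted p = 0.000108) and 1.32 ± 0.12 (adjusted p = 8.08e-07), were the smallest among the genes that passed. Lrrtm4 went from 2.44 to 3.95 CPM to 10.1 to 22.5 CPM in wild type (2.5 ± 0.29, adjusted p = 3.68e-05) and from 1.45 to 2.91 CPM to 15.2 to 21.4 CPM in humanized samples (3.20 ± 0.23, adjusted p = 8.87e-08). Lrrtm4 had 28 to 86 reads per E11.5 sample counted without strand and 49 to 150 counted on its own strand. With the strand counts its rises were 2.7 and 3.38, and with GC offsets 1.92 and 2.07.

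Lrrtm2 had few reads at E11.5, 83, 21, 35 and 38 reads in wild type (4.26, 1.11, 1.77 and 1.54 CPM) and 15, 25, 12 and 37 reads in humanized samples (0.73, 1.12, 0.621 and 1.52 CPM). At E17.5 it was at 24.8, 81.9, 51.1 and 61.0 CPM in wild type and 69.0, 97.9, 50.6 and 65.6 CPM in humanized samples. Lrrtm2 had the largest rises of the 9 genes, 4.65 ± 0.49 (adjusted p = 2.19e-05) and 6.10 ± 0.30 (adjusted p = 5.33e-09). With the GC offsets they were 3.59 and 4.37, still the largest in both genotypes. Counted on its own strand alone, which leaves out reads of its host Ctnna1, Lrrtm2 had 19 to 81 reads in wild type and 5 to 36 in humanized E11.5 samples.

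Lrrtm3 had 41, 43, 41 and 52 reads in wild type E11.5 samples (2.10, 2.28, 2.07 and 2.11 CPM) and 22, 27, 19 and 29 reads in humanized ones (1.07, 1.21, 0.983 and 1.19 CPM). At E17.5 it stood at 14.9, 32.8, 32.6 and 36.3 CPM in wild type and at 31.8, 34.6, 30.8 and 34.2 CPM in humanized samples. Lrrtm3 rose by 3.76 ± 0.30 (adjusted p = 3.01e-06) in wild type, by 3.96 without replicate 1 of E17.5, and by 4.86 ± 0.15 (adjusted p = 3.8e-10) in humanized diencephalon. With GC offsets these were 3.49 and 4.19. Whether the stage difference of any member differs between genotypes was not tested, because the E11.5 genotype contrast that chose the list is part of it.

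**Figure D2:**
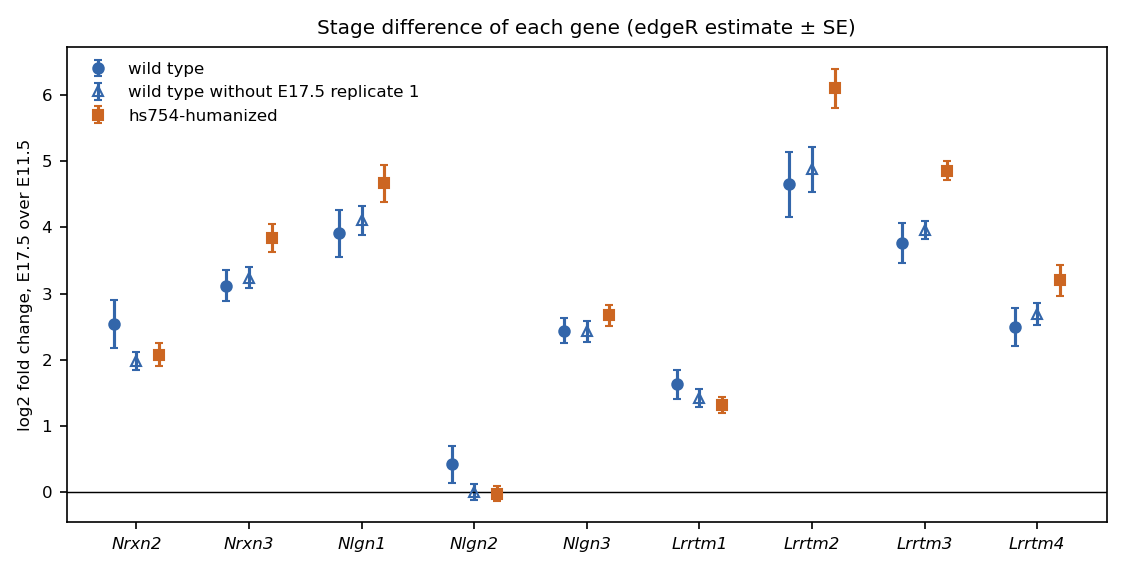
Log2 fold change of each gene at E17.5 over E11.5 (edgeR estimate, bars SE) in wild type, in wild type without E17.5 replicate 1, and in hs754-humanized diencephalon. All points lie above 1 except those of Nlgn2, which stand at 0.42, 0.00 and -0.02.

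The rises stood beside the changes in cell type markers given above, with pan-neuronal genes up and progenitor genes down at E17.5, and the part of cell composition in the stage differences was not tested. The host genes did not follow one pattern. Ctnna1, the alpha-catenin that holds Lrrtm2 on the opposite strand, fell by 2.10 in wild type (log2, adjusted p = 3.95e-06), from 330 to 354 CPM to 68.7 to 97.8 CPM, and by 2.29 in humanized tissue (adjusted p = 2.55e-09). Ctnna2, the neural alpha-catenin that holds Lrrtm1, rose by 1.60 (adjusted p = 2.19e-05) and 1.95 (adjusted p = 3.95e-07). Ctnna3, which holds Lrrtm3, had 0 to 3 reads per sample at E11.5 and 3 to 10 at E17.5.

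Levels per kilobase of exon (RPKM, with exon lengths from the annotation) put Nlgn2 first in all 4 groups. They use counts without strand, which for Lrrtm4 were well below those on its own strand. Its humanized E17.5 samples stood at 15.2 to 21.4 CPM without strand and 31.6 to 42.1 CPM on its strand. For wild type at E11.5 these were 2.44 to 3.95 and 4.79 to 6.05 CPM. The places and overlaps of Lrrtm4 below rest on that choice, and no order by strand counts was made. In wild type E11.5 samples the mean RPKM was 32.7 ± 2.99 (SD, n = 4) for Nlgn2, 5.86 ± 0.911 for Nrxn2, 2.88 for Nlgn3, 2.42 for Lrrtm1 and 1.64 for Nrxn3, followed by Lrrtm4, Lrrtm3, Nlgn1 and Lrrtm2 between 0.523 and 0.358. The samples of Nlgn2 and Nrxn2, of Nrxn2 and Nlgn3, of Lrrtm1 and Nrxn3 and of Nrxn3 and Lrrtm4 did not overlap, whereas Nlgn3 overlapped Lrrtm1 and the last 4 genes overlapped their neighbours. In humanized E11.5 samples the order was Nlgn2 (34.3), Nrxn2 (5.88), Lrrtm1 (2.5), Nlgn3 (2.4), Nrxn3 (1.16), Lrrtm4 (0.332), Nlgn1 (0.300), Lrrtm3 (0.235) and Lrrtm2 (0.164), with overlap between Lrrtm1 and Nlgn3 and between each pair of neighbours from Lrrtm4 on. At E17.5 the spread had narrowed. Humanized means ran from 33.9 ± 4.20 for Nlgn2 and 25.0 ± 4.30 for Nrxn2 through Nrxn3 (16.8), Nlgn3 (15.4), Lrrtm2 (11.7), Nlgn1 (7.77), Lrrtm3 (6.95) and Lrrtm1 (6.28) to 3.13 ± 0.467 for Lrrtm4. The neighbours that did not overlap were Nrxn2 and Nrxn3, and Lrrtm1 and Lrrtm4. In wild type E17.5 samples the mean RPKM ran from 44.0 for Nlgn2 and 34.2 for Nrxn2 through Nlgn3 (15.7), Nrxn3 (14.4), Lrrtm2 (9.02), Lrrtm1 (7.54), Lrrtm3 (6.17) and Nlgn1 (6.16) to 2.99 for Lrrtm4, and Nrxn2 and Nlgn3 were the only neighbours without overlap. Without replicate 1 the wild type order was Nlgn2 (33.1), Nrxn2 (23.5), Nlgn3 (15.8), Nrxn3 (15.7), Lrrtm2 (10.7), Lrrtm3 (7.17), Nlgn1 (7.13), Lrrtm1 (6.57) and Lrrtm4 (3.43). Nlgn2 and Nrxn2, Lrrtm2 and Lrrtm3, and Lrrtm1 and Lrrtm4 then did not overlap either.

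Partners of these proteins were listed by role. Of 77 partner genes, 76 were tested in wild type, where 55 rose and 7 fell with stage, and 77 in humanized tissue, where 58 rose and 12 fell. Their median log2 fold changes were 1.55 and 1.78. Of all genes tested, 29.0% rose and 26.7% fell in wild type, and 38.2% rose and 39.5% fell in humanized tissue. Secreted ligands rose in 8 of 11 cases and fell in 2 in wild type, and rose in 9 of 12 and fell in 3 in humanized tissue. Cbln4, a secreted cerebellin, went from 0.212 to 1.01 CPM to 63.6 to 78.2 CPM in wild type (6.75 ± 0.38, adjusted p = 5e-07), and C1ql1, a C1q-like protein, fell from 10.6 to 14.6 CPM to 3.10 to 7.53 CPM (-1.41 ± 0.29, adjusted p = 0.00209).

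Other postsynaptic adhesion receptors rose in 19 of 24 cases in wild type and 20 in humanized tissue, with 1 and 2 falls. For this list and the next, the shares over all genes tested were 29.0% higher and 26.7% lower in wild type. In humanized tissue those shares were 38.2% and 39.5%. The largest rise was that of Il1rapl1, an interleukin receptor relative that binds presynaptic phosphatases, at 0.106 to 0.461 CPM and then 6.22 to 19.6 CPM (5.82 ± 0.50, adjusted p = 5.09e-06). Other presynaptic receptors rose in 10 and 11 of 16 cases and fell in 1 and 2. Cadm2, a SynCAM adhesion protein, rose by 6.31 ± 0.36 (adjusted p = 5.45e-07), from 1.59 to 3.79 CPM to 136 to 285 CPM, and the receptor phosphatase Ptprf fell by 1.27 ± 0.30 (adjusted p = 0.00442), from 385 to 553 CPM to 131 to 338 CPM.

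The list of neuroligin inhibitors and glypicans was mixed, with 2 rises and 3 falls among 8 genes in wild type. In humanized tissue there were 2 and 5, and the median log2 fold changes were -0.38 and -0.86. The shares over all genes tested were 29.0% higher and 26.7% lower in wild type, and 38.2% and 39.5% in humanized tissue. Mdga2, which binds neuroligins and blocks their contact with neurexins, rose by 4.07 ± 0.34 (adjusted p = 4.13e-06), from 4.93 to 7.33 CPM to 49.7 to 133 CPM. Gpc3, a heparan sulfate glypican, fell by 1.46 ± 0.20 (adjusted p = 0.000119). Intracellular scaffolds rose in 16 of 17 cases in each genotype with no fall. Dlg2, a postsynaptic density scaffold, rose by 4.68 ± 0.30 (adjusted p = 9.05e-07), from 5.96 to 9.02 CPM to 107 to 237 CPM.

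Between genotypes at E17.5, no member passed the test. The adjusted p ranged from 0.808 to 0.923 over the 9 genes, and 0.0% of the 18763 genes tested were called (207 had an unadjusted p under 0.05, none of them a member). DESeq2 called 1 gene of the table and none of the members. The estimates, humanized over wild type on the log2 scale, were -0.47 ± 0.35 for Nrxn2, 0.22 ± 0.21 for Nrxn3, 0.33 ± 0.28 for Nlgn1, -0.39 ± 0.29 for Nlgn2, -0.04 ± 0.15 for Nlgn3, -0.27 ± 0.21 for Lrrtm1, 0.37 ± 0.33 for Lrrtm2, 0.17 ± 0.25 for Lrrtm3 and 0.06 ± 0.25 for Lrrtm4. No member separated the genotypes at this stage, where 0.73% of genes tested did so with lower and 0.48% with higher values in humanized samples. None of the 77 partner genes was called either.

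Wild type E17.5 replicate 1 bears on these estimates. Against the mean of wild type replicates 2 to 4, its level was higher by 1.49 for Nrxn2, 1.21 for Nlgn2 and 0.67 for Lrrtm1 (log2), and those genes have exonic GC contents of 58.6%, 59.2% and 51.2%. It was lower by 0.62 for Nrxn3 on that scale, by 1.13 for Nlgn1, by 1.38 for Lrrtm2, by 1.18 for Lrrtm3 and by 1.07 for Lrrtm4, whose exonic GC contents lie between 38.1% and 47.0%. Nlgn3, at 49.6%, was within the range of the other 7 samples. Without this library the genotype estimates were 0.08 for Nrxn2, 0.03 for Nlgn2, -0.07 for Lrrtm1, -0.05 for Lrrtm3 and -0.14 for Lrrtm4, and all 9 lay between -0.14 and 0.12. With GC offsets and all libraries kept, those of the same 5 genes were -0.02, 0.01, -0.06, 0.00 and -0.23. The same library had the lowest share of reads on no gene, 48.1% against up to 58.4%. Its summed levels were the highest of its stage for red blood cell (986 CPM) and microglia markers (71.4 CPM). They were also the highest for endothelial (432 CPM), oligodendrocyte lineage (314 CPM) and telencephalon markers (106 CPM). They were the lowest of its stage for pan-neuronal (7893 CPM), neural progenitor (1014 CPM) and astrocyte markers (674 CPM). The part of these in its values was not tested.

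**Figure D3:**
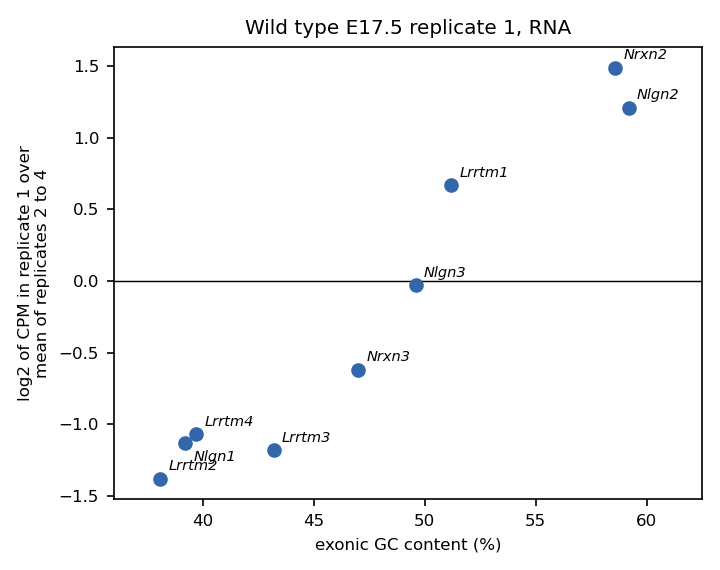
Level of each of the 9 genes in wild type E17.5 replicate 1 over the mean of wild type replicates 2 to 4 (log2 of CPM, vertical axis) against the exonic GC content of the gene in percent (horizontal axis), 1 point per gene. The genes with over 50% GC lie above 0, at 0.67 to 1.49, and those under 48% lie below it, at -0.62 to -1.38.

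At E11.5 the genotype comparison is the one the list was chosen with, and its values are given as a description. Lrrtm3 was at 0.983 to 1.21 CPM in the 4 humanized samples and 2.07 to 2.28 CPM in the 4 wild type samples, with no overlap, a log2 fold change of -0.96 ± 0.18. Its order between genotypes was thus not seen at E17.5, where the samples overlapped. Lrrtm2 was at -1.12 ± 0.44, and -0.57 without wild type replicate 1. Lrrtm4 was at -0.67 ± 0.25, Nrxn3 at -0.52 ± 0.19, Nlgn1 at -0.45 ± 0.30 and Nlgn3 at -0.29 ± 0.19. Nrxn2, Lrrtm1 and Nlgn2 stood at -0.02, 0.02 and 0.05. Only Lrrtm3 had groups that did not overlap, where 0.892% of the 17816 genes tested separated with lower and 1.61% with higher values in humanized samples, and 0.0% of them were called by edgeR (1058 at an unadjusted p under 0.05, and DESeq2 called 1 gene higher and 1 lower). With GC offsets the value for Lrrtm3 was -0.78.

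Pan-neuronal markers varied between the same samples. Their summed level was 2077, 2676, 1823 and 2845 CPM in humanized E11.5 replicates 1 to 4 and 2938, 2194, 3208 and 2506 CPM in wild type, so the genotypes overlapped. The red blood cell sum was 2243 to 4335 CPM in humanized and 1309 to 2829 CPM in wild type samples. The part of either in the values at E11.5 was not tested.

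Over all 16 samples, the genes whose log2 CPM was most like that of Lrrtm3 were Grk3, Cntn4 and Gpr135 (Pearson r = 0.996 each) and Syn3 and Shroom2 (0.995), among 14826 genes. These values rest mainly on the step between stages, since among the 8 samples of 1 stage they were 0.787 to 0.856 at E11.5 and 0.933 to 0.962 at E17.5. Within the list, Nrxn3 was most like Lrrtm2 (0.996), and Nlgn1, Nlgn3 and Lrrtm3 were most like Nrxn3 (0.996, 0.984 and 0.991). Lrrtm4 was most like Lrrtm2 (0.991), Nrxn2 and Lrrtm1 were each other's best match (0.976), and Nlgn2 reached 0.534, with Nrxn2. All these genes share the same libraries.

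Promoter chromatin was read as peaks within 1 kb of the canonical start of each gene. H3K4me3 marks active and poised promoters, H3K27ac active promoters and enhancers, and H3K27me3 is laid down by Polycomb at silenced or poised genes. The lot of H3K27ac antibody used is known to bind H2BK5ac, an acetylation of histone H2B, as well. Values are the fold enrichment over local background of the highest peak, as the peak caller gave it, and the read depth behind them is unknown. With 4 libraries at E11.5 and 6 at E17.5, Fisher's exact test (two-sided) on peak presence cannot go below p = 0.00476, and after adjustment over 20767 promoters 0.0% were called for each of the 3 histone marks. At an unadjusted p under 0.05 there were 1630 promoters for H3K27ac, 272 for H3K4me3 and 1045 for H3K27me3.

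The values of all 3 histone marks at Lrrtm3 differed between the stages, though no mark passed the test on peak presence. It had no H3K27ac peak in any of the 4 E11.5 libraries and a peak in all 6 E17.5 libraries, with fold enrichments of 15.9, 17 and 18.4 in wild type and 17.9, 17 and 8.56 in humanized tissue (Fisher's exact p = 0.00476, the smallest possible, adjusted p = 0.0987). The same pattern, no peak at E11.5 and a peak in every E17.5 library, was found at 922 of the 20767 promoters. H3K4me3 was present throughout, at 13.6 and 12.8 in wild type and 9.95 and 7.36 in humanized E11.5 libraries and at 42.8 to 49.9 in the E17.5 libraries. H3K27me3 was also present throughout, at 8.66 and 7.32 in wild type and 10.3 and 10.5 in humanized E11.5 libraries and at 3.18 to 4.42 at E17.5. Relative to the median promoter peak of each library, H3K4me3 at Lrrtm3 went from 0.166 to 0.301 to 0.789 to 0.983, and H3K27me3 from 1.46 to 2.18 to 0.693 to 0.974. Among promoters with an H3K4me3 peak in every library, 15.0% were higher in every E17.5 library than in any E11.5 library. For H3K27me3, 42.4% of such promoters were lower in that way. Relative to the library median these shares were 9.02% and 35.8%. CTCF, read at E17.5, was at 28.7 to 36.7 in all 6 libraries, above the value at 84.5% or more of promoters with a CTCF peak.

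**Figure D4:**
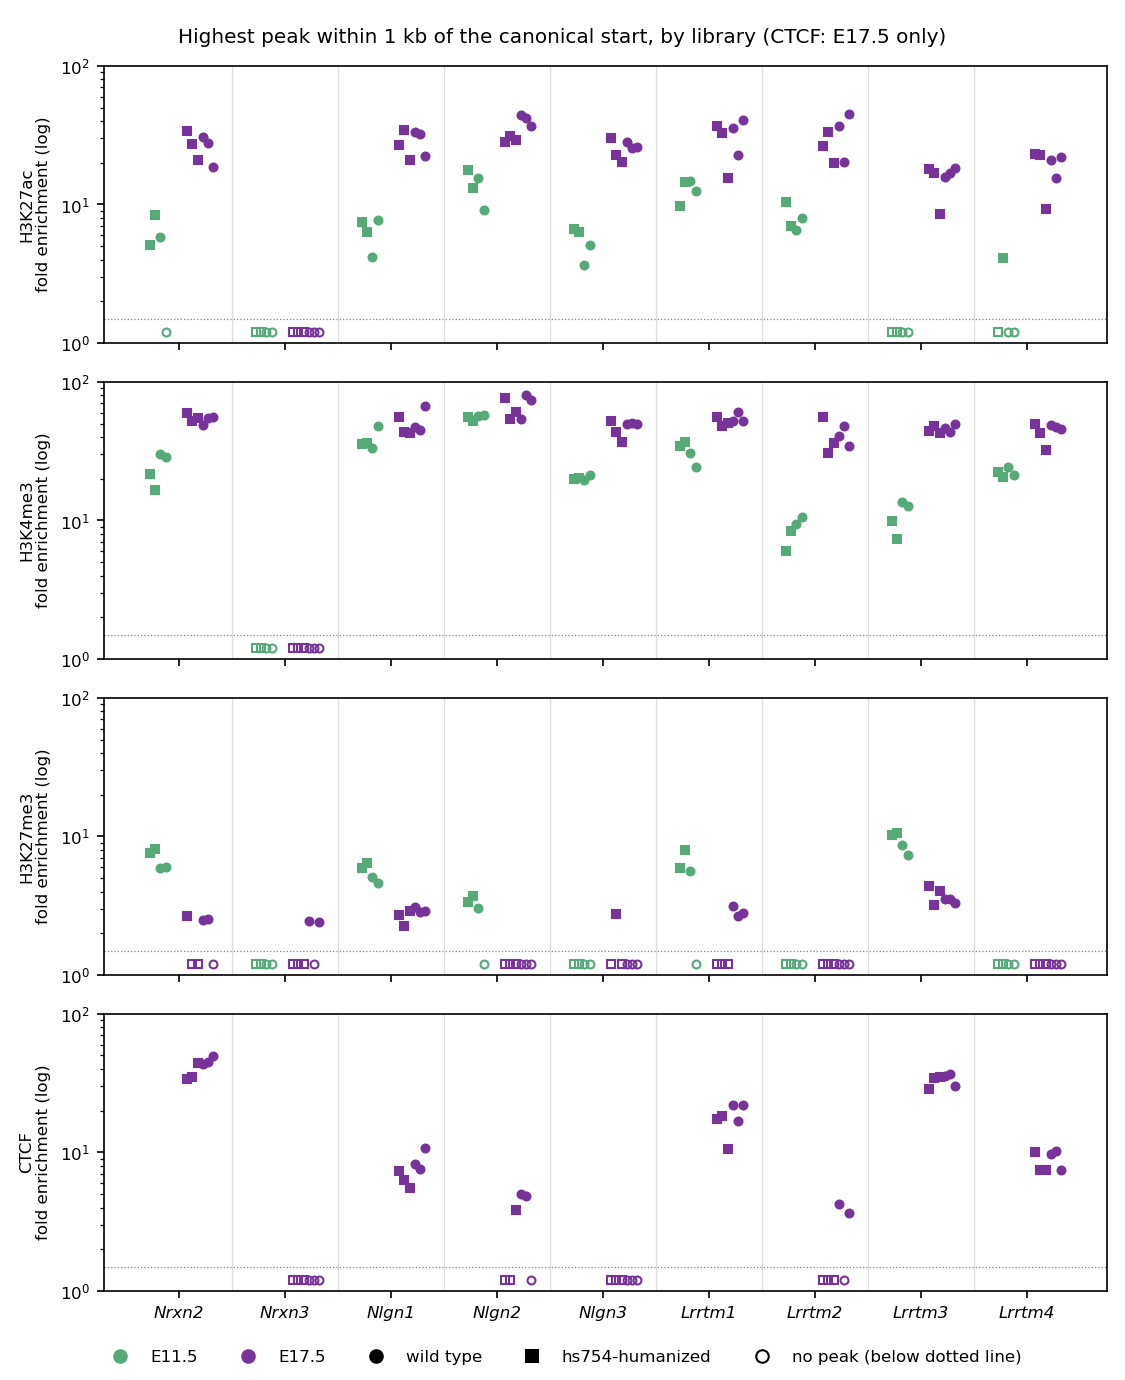
Fold enrichment (log axis) of the highest peak within 1 kb of the canonical start of each gene in every ChIP-seq library, by mark, with E11.5 libraries in green, E17.5 in purple, circles for wild type and squares for hs754-humanized. Open symbols under the dotted line are libraries with no peak. Lrrtm3 has no H3K27ac peak at E11.5, its H3K4me3 lies at 7.36 to 13.6 at E11.5 and 42.8 to 49.9 at E17.5, and its H3K27me3 at 7.32 to 10.5 and then 3.18 to 4.42.

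Of the other Lrrtm genes, Lrrtm1 had H3K27me3 within 1 kb of its start in some libraries and Lrrtm2 and Lrrtm4 in none. Lrrtm4 had an H3K27ac peak in 1 of 4 E11.5 libraries (4.11) and in 6 of 6 at E17.5 (9.26 to 23.1, Fisher's exact p = 0.0333, adjusted p = 0.53), with no H3K27me3 peak in any of the 10 libraries. Lrrtm2 likewise had no H3K27me3 peak in any library. Its H3K4me3 went from 5.99, 8.42, 9.44 and 10.6 at E11.5 to 30.9 to 55.7 at E17.5, and the H3K4me3 peaks within 5 kb of its start covered 883 to 1384 bp at E11.5 and 5805 to 6075 bp at E17.5. At Lrrtm3 the same cover went from 2908 to 3663 bp to 5607 to 5677 bp. Lrrtm1 had H3K27ac and H3K4me3 peaks in every library. An H3K27me3 peak lay within 1 kb of its start in 3 of 4 libraries at E11.5 (5.63 to 7.94). At E17.5 this held for 3 of 6 libraries (2.67 to 3.17), the 3 being the wild type ones. Within 5 kb, however, H3K27me3 peaks were present in every E17.5 library. They covered 420 to 2060 bp in wild type and 837 to 1074 bp in humanized libraries. The 3 wild type peaks within 1 kb were weak, at percentiles 9.64 to 27.5 of the promoter peaks of their libraries. How many promoters split by genotype in this way was not counted.

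Among the neuroligins, Nlgn2 had H3K4me3 at 52.0 to 57.4 already at E11.5 and 53.5 to 80.2 at E17.5, which overlapped. It had a weak H3K27me3 peak in 3 of 4 E11.5 libraries (3.05 to 3.70) and none in the 6 E17.5 libraries (Fisher's exact p = 0.0333, adjusted p = 0.865). Nlgn1 kept H3K27me3 in every library, at 4.61 to 6.42 and then 2.26 to 3.08, beside H3K27ac of 4.17 to 7.71 and then 21.0 to 34.6. Nlgn3 had H3K27me3 within 1 kb in 0 of 4 and 1 of 6 libraries, and its H3K4me3 went from 19.7 to 21.2 to 36.8 to 52.1. Within 5 kb of the Nlgn3 start, H3K27me3 peaks covered 2267 bp in humanized E11.5 replicate 1. At E17.5 such peaks covered 3067 bp in humanized replicate 2 and 991 bp in wild type replicate 3. The other libraries had none there. At Nrxn2, H3K27ac was present in 3 of 4 libraries (5.12 to 8.37) and then 6 of 6 (18.5 to 33.7), and H3K27me3 in 4 of 4 (5.94 to 8.18) and then 3 of 6 (2.48 to 2.65).

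Counted over the members, H3K4me3 was higher in every E17.5 library than in any E11.5 library at 6 of the 8 genes with a peak in all 10 libraries (Nrxn2, Nlgn3 and the 4 Lrrtm genes). Of all 12976 promoters with such peaks, 15.0% were higher in that way, and 9.02% after division by the library median, where the same 6 genes remained. H3K27ac was higher in that way at 5 of 5 genes, against 40.1% of promoters, but at 3 of 5 (Nlgn1, Nlgn3 and Lrrtm2) after division by the library median, against 13.5%. H3K27me3 was lower in that way at both genes with peaks in all libraries, Nlgn1 and Lrrtm3, against 42.4% of promoters, and 35.8% after division. Library medians over promoters with a peak were 10.1 to 11.7 at E11.5 and 13.4 to 21.6 at E17.5 for H3K27ac, 43.8 to 46.1 and 47.8 to 54.9 for H3K4me3, and 4.75 to 5.63 and 4.47 to 4.71 for H3K27me3. Humanized E17.5 replicate 3 was the lowest H3K27ac library of its stage, with a median of 13.4 where the other 5 had 17.8 to 21.6.

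Nrxn3 had no H3K4me3 or H3K27ac peak in any library at the start annotated as canonical. Whether transcripts begin at that start in this tissue was not tested. The first and the last annotated starts of Nrxn3 had H3K4me3 in all 10 libraries. Of the 18 annotated starts of the 9 genes, 14 had an H3K4me3 peak in every library and 4 in none. The 2 Nlgn2 starts lay under the same H3K4me3 peak, 5872 bp long in wild type E11.5 replicate 1. The second Nlgn2 start, with 4 CpGs in its window, therefore counts among the 14 through a shared peak. The sequence windows of the 14 held 2 to 17 CpGs (median 5.5) and those of the 4 held 1 to 6 (median 1.5). The first Nrxn3 start, 71.5 kb before the canonical one, had H3K4me3 at 10.9 to 18.4 and then 23.4 to 42.2, and H3K27ac in 0 of 4 E11.5 and 5 of 6 E17.5 libraries (5.72 to 28.5). The start 1089.4 kb into the gene had H3K4me3 at 22.7 to 26.0 and then 25.9 to 44.5, H3K27ac in 1 of 4 and then 6 of 6 libraries, and H3K27me3 at 5.51 to 6.15 and then 2.61 to 3.00. H3K27ac peaks within the gene numbered 12 to 21 per E11.5 library and 32 to 50 per E17.5 library.

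Nrxn2 had 3 starts with H3K4me3 in every library. The internal start 79.1 kb downstream had H3K4me3 at 54.2 to 60.3 and then 65.2 to 77.6, and H3K27ac at 7.26 to 11.2 and then 32.5 to 51.1. It also had H3K27me3, in 4 of 4 libraries at E11.5 (4.41 to 5.69) and 2 of 6 at E17.5 (2.62 and 2.71). The start 9.2 kb downstream had H3K27me3 in all libraries, at 12.5 to 18.5 and then 3.76 to 4.91, with no H3K27ac at E11.5 and peaks of 2.47 to 4.20 in 5 of 6 E17.5 libraries. Nlgn1 had a second marked start 178.5 kb downstream, where CTCF reached 27.8 to 44.5 in 6 of 6 libraries.

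**Figure D5:**
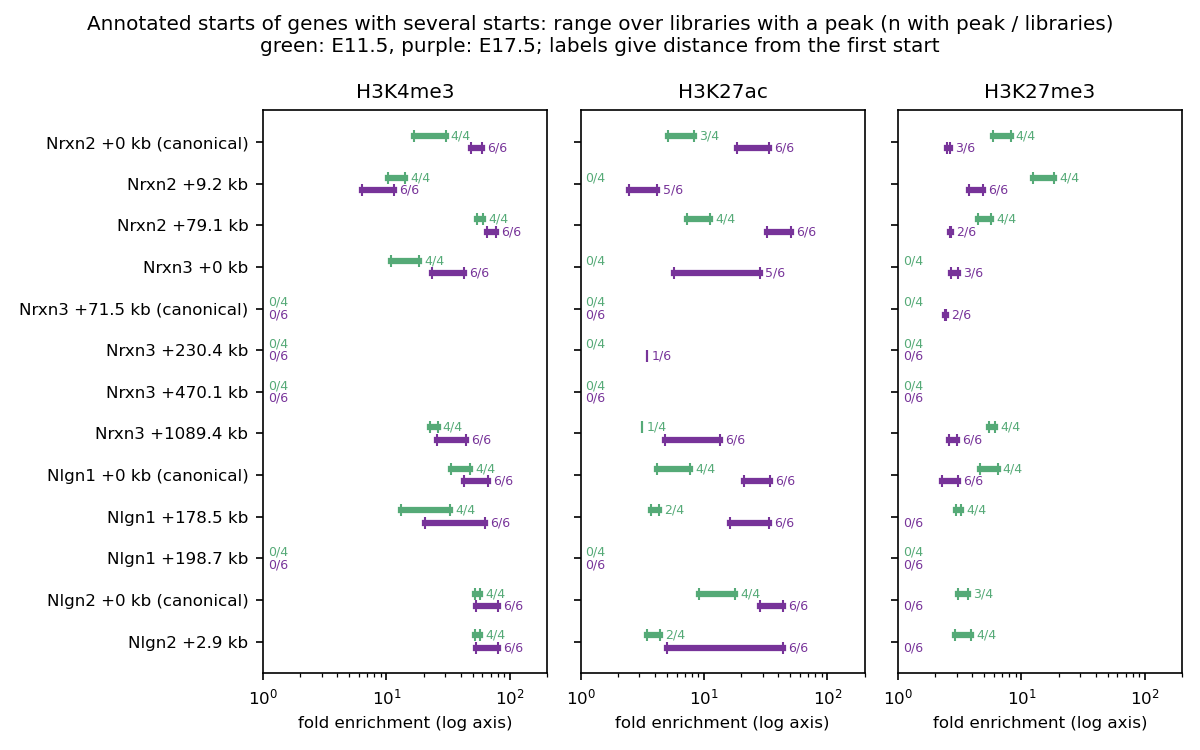
Fold enrichment (log axis) of H3K4me3, H3K27ac and H3K27me3 peaks at every annotated start of the 4 members with more than 1 start, as the range over libraries with a peak, at E11.5 (green) and E17.5 (purple), with the number of libraries with a peak beside each bar. Starts are named by their distance from the first start of the gene. The canonical Nrxn3 start, at 71.5 kb, has no H3K4me3, whereas the starts at 0 and 1089.4 kb have it in all 10 libraries.

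CTCF at E17.5 was present in all 6 libraries at the canonical starts of 5 of the 9 genes, Nrxn2 (34.1 to 49.6), Lrrtm3, Lrrtm1 (10.5 to 22.0), Nlgn1 (5.51 to 10.7) and Lrrtm4 (7.42 to 10.2). Of all promoters, 28.6% had CTCF in all 6 libraries. It was found in 3 of 6 libraries at Nlgn2, 2 of 6 at Lrrtm2 and none at Nlgn3 and the canonical Nrxn3 start.

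Between genotypes, promoter marks are given as values, since an exact test cannot go below p = 0.33 with 2 libraries against 2, nor below 0.1 with 3 against 3, and the E11.5 contrast is the one the list was chosen with. At E11.5, H3K4me3 was lower in both humanized than in both wild type libraries at 4 of 8 genes (Nrxn2, Nlgn2, Lrrtm2 and Lrrtm3), against 23.4% of promoters, and higher at 1, Lrrtm1, against 12.4%. After division by the library median it was lower at 3 (Nlgn2 then overlapped), against 15.4%, and higher at Lrrtm1, against 18.1%. At Lrrtm3 these were the values above, with H3K4me3 at 9.95 and 7.36 against 13.6 and 12.8. H3K27me3 was higher in both humanized libraries at 3 of 3 genes (Nrxn2, Nlgn1 and Lrrtm3) on both scales, against 31.3% of promoters as deposited and 39.4% after division. H3K27ac was higher at 1 of 5 genes, Nlgn3, on both scales, against 37.4% and 19.4%, and lower at none as deposited (5.89% of promoters) and at Lrrtm1 after division (15.3%).

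At E17.5, H3K4me3 separated the genotypes at 0 of 8 genes in either direction, on both scales. Of promoters, 8.06% were lower and 2.26% higher as deposited, and 5.73% and 4.15% after division by the library median. H3K27ac was lower in all 3 humanized libraries at 1 of 8 genes, Nlgn2, against 14.7% of promoters. After division by the library median Nlgn2 stood at 2.29, 2.21 and 1.7 in wild type and 1.49, 1.75 and 2.19 in humanized libraries, so no member was separated, against 5.04% of promoters. H3K27me3 was lower at neither of 2 genes as deposited (8.78% of promoters) and at Nlgn1 after division (13.7%). CTCF was lower at 1 of 5 genes, Nlgn1, against 7.44% of promoters, and at Nlgn1 and Lrrtm1 after division, against 15.3%.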

How the data were processed

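The deposited RNA files held raw counts per gene, 1 file per sample, which the authors made with STAR 2.7.9a from polyA-selected libraries on mm39. The column counted without strand was used, and which column the study tested is not given in the sources used here. 96.2% of stranded counts lay in the reverse column, which served as an alternative, and 48.1% to 58.4% of counts in the first column fell on no gene and were left out. The deposited peak lists gave, for each library, the fold enrichment over background (a ratio) and −log10 of the q-value from MACS2 2.2.7.1 after alignment with Bowtie2 2.4.2. Peaks were called per replicate, the H3K27me3 lists have the broad form, and the settings for that mark are not given in the sources used here. Humanized ChIP-seq reads were aligned to a genome with the human sequence at hs754. The 24 input samples were not analysed.

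Counts were tested with edgeR 4.0.16 (filterByExpr, TMM, quasi-likelihood test, Benjamini-Hochberg adjustment over all genes tested, threshold 0.05) in R 4.3.3, each comparison on its own 8 samples, and with DESeq2 1.42.0 as an alternative. The steps were tested on simulated data. Gene models, exon lengths, starts (joined within 1000 bp) and sequences came from the GENCODE M39 annotation of GRCm39, which matched 98.8% of gene IDs, while chromosome 13 was left out of promoter counts. A promoter had a peak where at least 1 base lay within 1000 bp of the canonical start. Replicate pairs within a group were compared, and none was counted as 1 library. Replicates were separate litter pools.

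The 9 members and all lists were chosen with earlier results of these data known. The text names all members, the 3 host genes, per partner role the called gene with the largest rise and the largest fall in wild type among those called alike in both genotypes, the 5 genes most like Lrrtm3, and each member's best match. Alternatives were DESeq2 size factors, no filter, a fit of all 16 samples, a replicate block, offsets for exonic GC in 20 bins, the strand column, each replicate left out, a 2500 bp distance, −log10 q of 5 and 50% overlap. Division by the library median and the order of levels without wild type E17.5 replicate 1 were added after the data were seen.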

Additional observations from a re-analysis of the deposited data

Results flagged for a closer look

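Among 36 groups of 4 RNA samples (9 genes in 4 groups), 4 held a sample far from the other 3, where chance alone gives about 1 in 20. Wild type E17.5 replicate 1 stood far above the others of its group for Nrxn2, at 914 CPM against 306 to 358, and for Nlgn2, at 472 CPM against 192 to 212. Wild type E11.5 replicate 1 was the high sample for Nlgn3, at 35.4 CPM against 23.7 to 24.0. Wild type E11.5 replicate 2 was the high sample for Lrrtm3, at 2.28 CPM against 2.07 to 2.11, in a group whose SD was 0.0942 CPM.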

How the results depend on the processing

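The number of members that rose with stage was 8 in each genotype under all alternatives but offsets for exonic GC content, which made it 9 in both: Nlgn2 then stood at 0.35 (adjusted p = 0.023) in wild type and 0.49 (adjusted p = 0.000926) in humanized tissue. The direction for Nlgn2 in humanized tissue also turned with DESeq2 size factors (0.05), the strand column (0.01) and DESeq2 (0.01), and leaving out 1 replicate gave -0.12 to 0.03. In wild type leaving out 1 replicate gave it 0.00 to 0.56. The cause of these turns was not tested. No member was called between genotypes at E17.5 under any alternative, nor by promoter peaks of any mark. Estimates at E17.5 that turned were, with GC offsets, Nlgn2 (0.01), Nlgn3 (0.04) and Lrrtm4 (-0.23), and over single samples left out Nrxn2 (-0.61 to 0.08), Nlgn2 (-0.51 to 0.03), Nlgn3 (-0.06 to 0.00), Lrrtm3 (-0.05 to 0.31) and Lrrtm4 (-0.14 to 0.19). Lrrtm3 at E11.5 was -0.78 with GC offsets.

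Replicate numbers were not taken as pairs. Deviations of samples with the same number correlated at -0.55 to 0.394 in the stage comparisons, 0.034 to 0.174 between genotypes at E11.5, and 0.54, 0.584, 0.09 and 0.225 between genotypes at E17.5, where 1 of 4 was under 0.1. The replicate block changed no member's call (8 members rose in each genotype, Lrrtm3 at 3.68 in wild type). Genes with p under 0.05 between genotypes at E17.5 numbered 207 as reported, 972 with no filter, 862 in a fit of all 16 samples, 717 with the replicate block, 361 with DESeq2 and 82 to 750 with 1 sample left out. Lrrtm2 and Lrrtm3 rest on 12 to 83 reads per sample at E11.5, so their levels there are imprecise, and ChIP-seq depth is unknown.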

Other observations

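Marker lists of other cell types were measured in the same libraries, and no gene of these lists was at 0 in all samples of a group. Astrocyte genes (7) summed to 459 to 617 CPM at E11.5 and 674 to 932 CPM at E17.5, and oligodendrocyte lineage genes (7) to 119 to 166 CPM and 219 to 314 CPM. Genes of choroid plexus and meninges (7) summed to 714 to 986 CPM and then 306 to 755 CPM. Endothelial genes (6) were at 292 to 353 CPM at E11.5 and 241 to 432 CPM at E17.5, the highest value in wild type replicate 1. Microglia genes (6) were at 39.2 to 56.4 CPM at E11.5 and, that library aside, at 28.7 to 35.8 CPM at E17.5. Of the 10 diencephalon genes, Otx2 was at 274 to 333 CPM at E11.5 and 32.6 to 44.0 CPM at E17.5. Barhl2, Irx1, Irx2 and Irx3 were likewise lower in every E17.5 sample. The other genes of the list did not fall in that way, and their stages overlapped. Tcf7l2 was at 686 to 1329 CPM and then 1019 to 1361 CPM, and Lhx9 at 40.8 to 145 CPM and then 116 to 326 CPM. Gbx2, Lhx2 and Sox14 overlapped too.

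All H3K27ac peaks that touched each gene, promoter peaks included, were also counted per library. They numbered 2 to 4 at E11.5 and 8 to 13 at E17.5 in Nlgn1, and 1 to 2 and then 4 to 7 in Lrrtm3. Lrrtm4 had 0 to 1 and 2 to 6, and Nrxn2 had 13 to 15 and 14 to 27. The counts moved less in Nlgn2 (1 to 2 and then 1 to 4) and Nlgn3 (2 to 3 and then 3 to 4). Lrrtm1 had 1 and then 2 to 3, and Lrrtm2 had 1 and then 2. The H3K27ac lists themselves held 32418 to 37311 peaks at E11.5 and 47132 to 77419 at E17.5, and the part of that in these counts was not tested.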
